A study of Mus musculus with 4 samples.

Results

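The genes described here are 42 cell cycle genes, followed across the leukocytes of mouse fibrosarcomas as the share of cells called cycling and as the balance between genes of DNA synthesis (S) and genes of G2 and mitosis (G2/M). The members were listed by name. All 42 were found among the 31053 features counted and all had reads, 19 in the S list and 23 in the G2/M list. The tumour cells were Raldh1/3 double knockouts (DKO), without the retinaldehyde dehydrogenases encoded by Aldh1a1 and Aldh1a3, or carried the Cas9 control. Retinaldehyde dehydrogenases make retinoic acid. The knockout was in the tumour cells, and the number of clones and the host strain are not given in the sources used here. All tumours were untreated and were taken on day 11, and live CD45+ cells were sorted for 10x Genomics 3′ v3 single-cell RNA sequencing. Each group had 2 libraries, called DKO 1, DKO 2, control 1 and control 2, and each library pooled 2 tumours. With 4 tumours behind each group, the p-values measure the spread between pools.

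A dividing cell copies its DNA in S phase and separates the copies in mitosis, and most of the genes for both tasks are transcribed only when they are needed. E2F transcription factors switch on replication genes at the entry to S phase, while mitotic genes peak later under complexes that bind the CHR element and under NF-Y, which binds CCAAT boxes. In tumours, macrophages and dendritic cells can divide locally and CD8 T cells divide after antigen recognition, whereas mature neutrophils do not divide.

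Promoters of 5 members are shown because the group differences described below turn on these genes. Each runs 5′ to 3′ on the strand of its gene, from 200 bases before to 30 bases after the RefSeq gene start (GRCm38.p6). They are Pclaf at chr9:65890123-65890352 on the plus strand, Mcm5 at chr8:75109309-75109538 on the plus strand, Mki67 at chr7:135716350-135716579 on the minus strand, Cdk1 at chr10:69352883-69353112 on the minus strand and Top2a at chr11:99024160-99024389 on the minus strand. Capitals mark an E2F motif (TTCCCGC or TTGGCGC), a CHR (TTTGAA or TTCGAA) or a CCAAT box on either strand, overlaps included.
Pclaf: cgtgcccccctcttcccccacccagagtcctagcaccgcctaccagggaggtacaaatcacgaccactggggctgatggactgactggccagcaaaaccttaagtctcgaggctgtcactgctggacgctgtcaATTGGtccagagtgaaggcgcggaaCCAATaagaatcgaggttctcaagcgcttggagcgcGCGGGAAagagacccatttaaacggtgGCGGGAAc
Mcm5: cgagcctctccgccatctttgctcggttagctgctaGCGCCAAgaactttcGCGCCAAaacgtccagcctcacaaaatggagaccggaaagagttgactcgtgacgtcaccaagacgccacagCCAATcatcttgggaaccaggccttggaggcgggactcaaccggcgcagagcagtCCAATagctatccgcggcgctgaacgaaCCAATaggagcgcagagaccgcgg
Mki67: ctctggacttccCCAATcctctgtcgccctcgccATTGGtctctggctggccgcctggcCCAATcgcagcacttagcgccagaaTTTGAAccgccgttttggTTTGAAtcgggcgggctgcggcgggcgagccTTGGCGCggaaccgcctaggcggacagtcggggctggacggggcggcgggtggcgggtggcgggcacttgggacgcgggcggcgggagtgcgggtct
Cdk1: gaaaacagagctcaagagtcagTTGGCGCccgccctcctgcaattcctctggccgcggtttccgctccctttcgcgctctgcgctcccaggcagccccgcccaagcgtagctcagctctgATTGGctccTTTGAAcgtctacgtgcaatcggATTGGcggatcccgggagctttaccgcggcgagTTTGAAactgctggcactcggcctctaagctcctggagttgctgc
Top2a: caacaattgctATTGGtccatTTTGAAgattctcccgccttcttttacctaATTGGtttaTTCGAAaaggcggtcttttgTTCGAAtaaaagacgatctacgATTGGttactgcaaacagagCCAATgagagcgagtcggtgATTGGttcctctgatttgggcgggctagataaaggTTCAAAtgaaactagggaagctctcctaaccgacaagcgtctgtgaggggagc
RefSeq gave a promoter for 36 of 42 members. The motifs were counted on both strands over 300 bases, from 250 before to 50 after the gene start. The CHR stood in 15 of 20 G2/M promoters (75.0%) and 3 of 16 S promoters (18.8%), beside 19.4% of all 27025 promoters. The E2F motif stood in 3 G2/M promoters (15%) and 7 S promoters (43.8%), beside 6.93% of all. A CCAAT box stood in 18 G2/M promoters (90.0%) and 11 S promoters (68.8%), beside 37.9% of all. A match describes letters and not binding. Gins2, Ccne2, Mcm4, Ccna2, Tpx2 and Aurkb were not matched.

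Of 30504 barcodes 25880 were kept, from libraries of 57458026 to 80032966 unique molecular identifiers (UMIs), and 53 to 76 barcode sequences of each library also occurred in another library. Cells were clustered without cell cycle genes into 24 clusters, and 4 classes named from markers were compared: monocyte/macrophage-like, dendritic-like, T-like and NK-like. Their own markers had the highest summed level in each class except dendritic-like cells, where, in CPM (UMIs scaled to a common library total), dendritic markers summed to 2897 and 2815 CPM in DKO and 3338 and 2767 CPM in control and monocyte/macrophage markers to 1781 and 3307 CPM in DKO and 2454 and 2820 CPM in control. Aldh1a1 had 0 and 1 UMIs in DKO and 1 and 0 UMIs in control, and Aldh1a3 had 10 and 24 UMIs in DKO and 28 and 9 UMIs in control. These counts cannot check the knockout, since the sort was for leukocytes.

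Of the 4 classes T-like cells held the largest share of cycling cells. In none of the classes did both DKO libraries lie on one side of both control libraries. The T-like class was made of clusters 11, 12 and 20. It left out clusters 1 (Cd4, Tnfsf8, Serpinb1a), 13 and 16 (Il13, Penk, Il4). These were unnamed, though Cd3e was found in 84.6%, 83.6% and 91.8% of their cells. A cell thinned to 2000 UMIs was called cycling with at least 3 UMIs from at least 2 G2/M members (a G2/M call) or, failing that, with at least 4 UMIs from at least 3 S members (an S call). Too shallow to be thinned were 608 and 381 cells in DKO and 885 and 684 cells in control. Among T-like cells 20.75% (95% Clopper-Pearson interval 18.15 to 23.55) were called in DKO 1 and 13.8% (10.8 to 17.2) in DKO 2, against 19.2% (16.1 to 22.7) in control 1 and 25% (20.85 to 29.5) in control 2. DKO 2 was lowest and control 2 highest, with the other two between them. Monocyte/macrophage-like cells had 13.3% and 7.015% in DKO and 13.3% and 5.13% in control, so that library 1 of each group was high and library 2 low. With clusters 1, 13 and 16 added, the T-like class had 14.53% and 11.13% in DKO and 11.41% and 15.02% in control. In control 1 this widened class was below monocyte/macrophage-like cells, and in the other libraries it still held the largest share. The rank of T-like cells in control 1 thus depended on leaving these clusters out. Dendritic-like cells had 3.92% and 9.24% in DKO and 7.49% and 4.53% in control, from 255 to 347 thinned cells per library. NK-like cells had 5.22% and 6.725% in DKO and 6.08% and 6.98% in control, and the groups overlapped. With 2 libraries a group an exact permutation test cannot go below p = 0.333, so the shares are given without a test. Intervals cover counting error only. Calls read transcripts and not division, and many cells lay near the threshold. Just inside it lay 15 and 13 NK-like cells in DKO and 5 and 11 NK-like cells in control, and just short of it 26 and 23 NK-like cells in DKO and 19 and 31 NK-like cells in control.

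**Figure D1:**
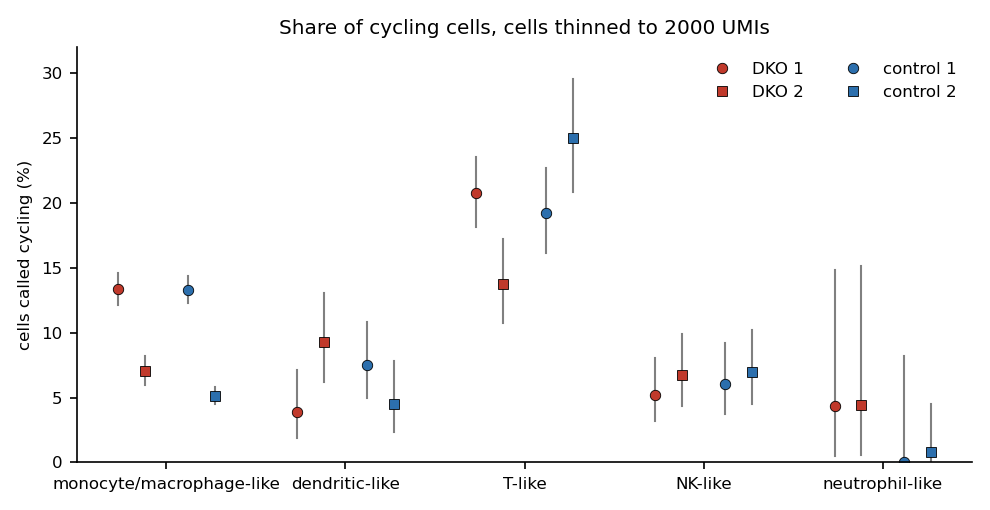
Share of cells called cycling (percent, y axis) per class and library, cells thinned to 2000 UMIs, DKO left of control, with 95% Clopper-Pearson intervals as bars. DKO and control points overlap in the 4 classes, and T-like cells stand highest, at 20.75% and 13.8% in DKO and 19.2% and 25% in control.

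Neutrophil-like cells were called in 4.35% and 4.44% in DKO and 0% and 0.826% in control, from 46 and 45 thinned cells in DKO and 43 and 121 thinned cells in control, with an upper bound of 15.15% in DKO 2 and 4.52% in control 2. Their median depth was 1607 and 2093 UMIs in DKO and 1683 and 1729 UMIs in control, and that of NK-like cells 4685 and 5757 UMIs in DKO and 4148 and 4312 UMIs in control. The Vcan and Ifitm6 cells of cluster 10, in the monocyte/macrophage-like class, were called in 1.16% and 0% in DKO and 0.652% and 0.285% in control. All calls of neutrophil-like cells were G2/M calls, with 0 S calls. The G2/M members Cks2 and Kif23 were higher in the neutrophil-like cluster than in any other compared. Which members led to the calls was not tested, and the shares are not used as a background rate for the other classes. Without thinning the shares were higher in each library of the 4 compared classes. Monocyte/macrophage-like cells then had 47.3% and 46.1% in DKO and 41.9% and 27.2% in control, at median depths of 11440 and 12700 UMIs in DKO and 9739 and 8940 UMIs in control. Barcodes marked as doublets, which were left out, were called in 32.1% and 18.3% in DKO and 22.0% and 10.8% in control.

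The balance of G2/M to S members was lower in both DKO libraries than in both control libraries in NK-like cells. Of the cycling NK-like cells 42.1% and 30.4% in DKO and 50% and 70.8% in control had the G2/M call, from 19 and 23 cycling cells in DKO and 20 and 24 cycling cells in control. In monocyte/macrophage-like cells it was the other way, with 78.2% and 83.9% in DKO and 74.5% and 71.5% in control, from 403 and 149 cycling cells in DKO and 580 and 246 cycling cells in control. In dendritic-like cells both DKO libraries were also higher, at 90.0% and 60.7% in DKO and 57.7% and 50% in control, from 10 and 28 cycling cells in DKO and 26 and 12 cycling cells in control. In T-like cells the groups overlapped, at 70.05% and 62.5% in DKO and 69.4% and 70.3% in control. Summed over all NK-like cells, the G2/M members were at 449 and 348 CPM in DKO and 744 and 699 CPM in control, with no overlap. The S members were at 576 and 711 CPM in DKO and 791 and 578.5 CPM in control, and these overlapped. The log2 ratio of the G2/M to the S sum was -0.36 and -1.03 in DKO and -0.09 and 0.27 in control. In such sums fewer cells in a phase and less transcript per cell cannot be told apart. The same ratio was 0.50 and 0.40 in DKO and 0.40 and -0.06 in control in monocyte/macrophage-like cells, where control 2 was low. In dendritic-like cells it was 0.25 and 0.17 in DKO and 0.15 and -0.61 in control, again with control 2 low, and in T-like cells it was 0.40 and 0.10 in DKO and 0.30 and 0.10 in control. Sums over members carry no test.

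**Figure D2:**
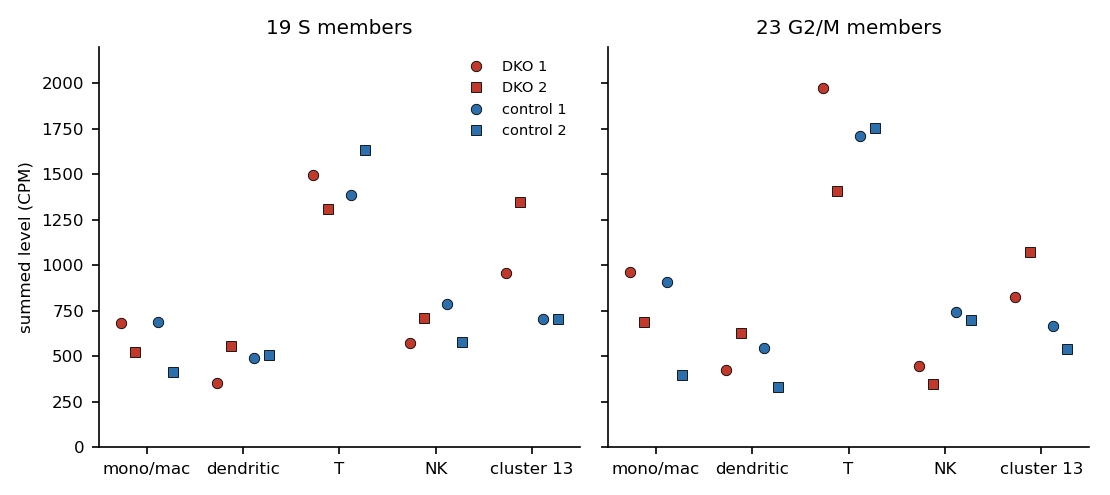
Summed level (CPM, y axis) of the 19 S members and the 23 G2/M members in each class and in cluster 13, each library a point, DKO left of control. In NK-like cells the S sums overlap and the G2/M sums do not (449 and 348 in DKO and 744 and 699 in control), and in cluster 13 both sums are higher in DKO.

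Clusters within a class differed widely. Cluster 2 (Apol7c, Dnase1l3, Cx3cr1) was called in 24.0% and 14.85% in DKO and 31.0% and 19.4% in control, and cluster 7 (Retnla, Gas6, Cd163) in 31.25% and 9.93% in DKO and 21.5% and 14.5% in control. Cluster 2 made up 24.2% and 27.9% in DKO and 17.3% and 8.14% in control of monocyte/macrophage-like cells and held 44.4% and 60.4% in DKO and 41.2% and 31.3% in control of the cycling cells of that class. The mix of clusters thus differed between libraries, and its part in the class share was not tested. Cluster 11, the Cd8a and Gzmk T cells, was called in 23.5% and 18.6% in DKO and 25.55% and 30.9% in control, with both DKO libraries below both control libraries. Foxp3 T cells (cluster 20) were called in 17.4% and 10.1% in DKO and 15.7% and 19.6% in control, and Tcf7 and Lef1 T cells (cluster 12) in 5.21% and 5.71% in DKO and 6.67% and 9.52% in control. Cluster 13 had Klra1, Klra6, Klra7 and the T cell receptor gene Tcrg-C4 among its leading genes and Cd3e in 83.6% of its 1623 cells. Its best-scoring marker list was the T list, but it did not meet the other rules for a name and is unnamed. It was called in 9.44% and 13.65% in DKO and 6.25% and 8.33% in control, with both DKO libraries above both control libraries. Fscn1 and Ccr7 dendritic cells (cluster 19) were called in 0% and 1.49% in DKO and 1.075% and 2.25% in control, beside 5.62% and 11.4% in DKO and 9.84% and 5.68% in control of Cd209a dendritic cells (cluster 0).

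**Figure D3:**
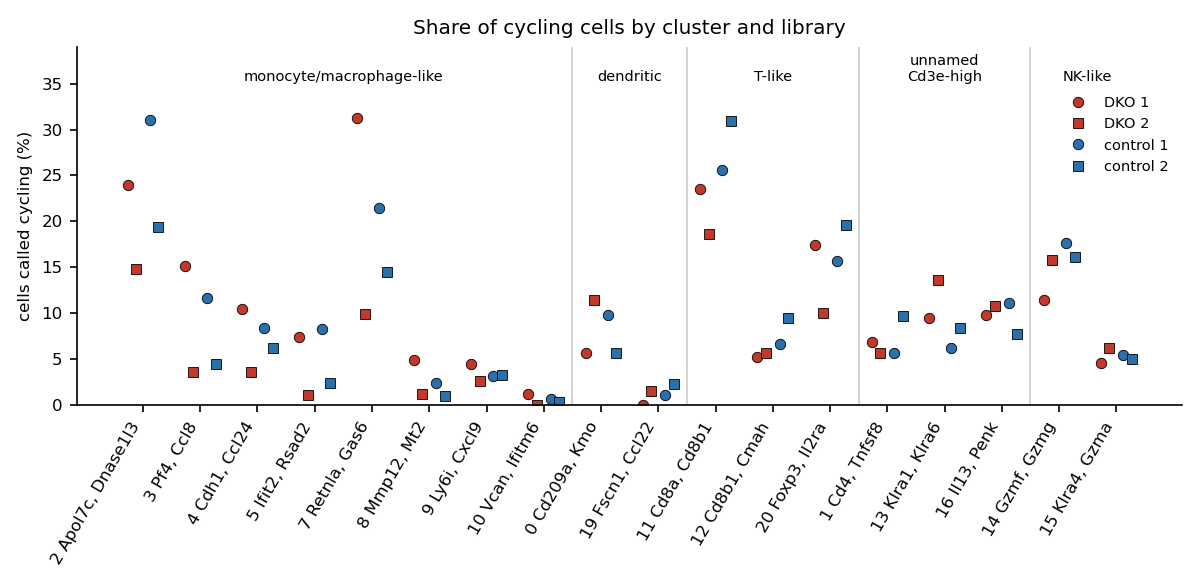
Share of cells called cycling (percent, y axis) per cluster and library, clusters given by number on the x axis and grouped by class, DKO left of control. Clusters 2, 7 and 11 stand high, and cluster 7, at 31.25% and 9.93% in DKO and 21.5% and 14.5% in control, shows how far libraries of 1 group lay apart.

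Across the 18 clusters with at least 50 cells in every library, members followed one another. Mki67, whose protein Ki-67 coats mitotic chromosomes, was at 317 CPM in cluster 11, its highest, and 5.55 CPM in cluster 10, its lowest. Spearman's rho with Mki67 had a median of 0.92 over the other 22 G2/M members and 0.87 over the 19 S members. Most alike were Top2a, the topoisomerase that untangles replicated DNA (0.99), and Nusap1, a spindle protein (0.98). Least alike were Cks2, a subunit of cyclin-dependent kinases (0.49), Slbp, which binds histone mRNA (0.62), and Kif23, a kinesin of cytokinesis (0.64). Of the members 35 were highest in cluster 11 and 5 in cluster 2, while Cks2 and Kif23 were highest in the neutrophil-like cluster 21. The 18 points share 4 libraries, so these values only describe.

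Single members were tested on UMIs summed per library and class, with edgeR's quasi-likelihood test and Benjamini-Hochberg adjustment over all genes tested. In monocyte/macrophage-like cells 0 of 42 members passed, beside 0.00768% of 13017 genes, none had an unadjusted p under 0.05 (0 members, beside 4.26% of genes higher and 4.32% lower), and DESeq2 called 0. The log2 change was positive for 38 members, with medians of 0.07 for S and 0.34 for G2/M beside 0.01 for all genes. Mki67 was at 108 and 80.4 CPM in DKO and 112.5 and 48.6 CPM in control (log2 0.21 ± 0.40, SE), with control 2 lowest. Nusap1 had the highest change, at 35.3 and 24.15 CPM in DKO and 31.5 and 11.0 CPM in control (0.47 ± 0.49). Cdc6, which loads the replicative helicase, had the lowest, at 6.30 and 4.54 CPM in DKO and 7.19 and 5.29 CPM in control (-0.22 ± 0.24). Pcna, the sliding clamp of DNA polymerases, and Cks2 were the 2 members with both DKO libraries above both control libraries, beside 21.3% of genes. Pcna was at 80.9 and 82.1 CPM in DKO and 77.7 and 52.0 CPM in control. Without control 1, 14 members were called higher in DKO, beside 459 of 13250 genes called. Without control 2 the change was positive for 3 members and negative for 39, with medians of -0.21 for S and -0.11 for G2/M. Without DKO 1 it was positive for 17 and negative for 25.

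Dendritic-like cells gave no call. Of 42 members 0 passed by edgeR, beside 0.0% of 9791 genes. At an unadjusted p under 0.05 there was 1 higher member, Ccnb2, beside 4.04% of genes, and 1 lower member, Ccne1, beside 3.56%, and DESeq2 called 0. The cyclin E genes, which act at the entry to S phase, were lower in both DKO libraries: Ccne1 was at 4.33 and 5.33 CPM in DKO and 7.98 and 8.35 CPM in control (log2 -0.81 ± 0.34, adjusted p = 0.628). Ccne2 was at 2.53 and 3.94 CPM in DKO and 4.52 and 7.59 CPM in control (-0.90 ± 0.46). The mitotic cyclin gene Ccnb2 went the other way, at 14.1 and 16.9 CPM in DKO and 11.4 and 5.315 CPM in control (0.77 ± 0.33, adjusted p = 0.635). Both DKO libraries lay below both control libraries for 7 of 42 members, all of them S members. This share is close to the 14.4% of genes. They lay above both control libraries for 2 members, each a G2/M member. For that side no share of all genes is given, so this count only describes. The median change was -0.32 for S and 0.24 for G2/M. Without DKO 1, 5 members were called higher, beside 832 of 10413 genes called, and without DKO 2, 2 were called lower, beside 157 of 9866 genes. The G2/M median was 0.53 without DKO 1 and 0.72 without control 1, but -0.05 without DKO 2 and -0.10 without control 2.

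In T-like cells 0 of 42 members passed by edgeR, beside 0.0401% of 9971 genes, with 2 lower at an unadjusted p under 0.05, Ccne2 and Tyms, beside 6.61% of genes, and DESeq2 called 0. Ccne2 had the lowest change, at 6.48 and 4.68 CPM in DKO and 10.7 and 15.7 CPM in control (log2 -1.24 ± 0.31, adjusted p = 0.235), and its groups did not overlap. Aurkb, the kinase of the chromosomal passenger complex, had the highest, at 25.6 and 21.7 CPM in DKO and 16.6 and 19.1 CPM in control (0.36 ± 0.20). Mki67 was at 311 and 219 CPM in DKO and 299.9 and 287 CPM in control and overlapped. The change was positive for 11 members and negative for 31. With the unnamed Cd3e-high clusters 1, 13 and 16 added it was positive for 21 and negative for 21. The medians were then -0.02 for S and 0.02 for G2/M, and edgeR called 0 of 42 members, beside 1 of 11309 genes. In the T-like class both DKO libraries lay below both control libraries for 11 members, 9 of them S members, beside 16.2% of genes. They lay above both control libraries for 4 members, 2 S and 2 G2/M. No share of all genes is given for that side, so this count only describes. Without DKO 1, 10 members were called lower, beside 631 of 10327 genes called. Without DKO 2 the change was positive for 23 members, with a G2/M median of 0.12.

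Within the T class, Ccne2 fell in the Cd8a and Gzmk cells of cluster 11. It was at 7.30 and 6.35 CPM in DKO and 14.3 and 19.1 CPM in control, and no DKO library reached a control library (log2 -1.31 ± 0.31, edgeR adjusted p = 0.0344). It was the only 1 of 42 members called, a share close to the 1.94% of 9079 genes called there. An unadjusted p under 0.05 and a lower level were found for 15 members, beside 9.57% of genes. Among these Tyms, thymidylate synthase, was at 46.7 and 44.9 CPM in DKO and 59.3 and 67.75 CPM in control (-0.53 ± 0.15, adjusted p = 0.0736). Pclaf, a factor that binds PCNA at replication forks, was at 224 and 176 CPM in DKO and 251 and 275 CPM in control (-0.46 ± 0.14, adjusted p = 0.0846). DESeq2 called 0 members, as did edgeR without control 1 and without control 2, and 12 were called without DKO 1, beside 564 of 9367 genes.

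NK-like cells were the class in which members changed: Mki67, Pclaf and Cdk1 fell, 3 of 39 tested members by edgeR beside 0.13% of 9211 genes. Mki67 (ENSMUSG00000031004) was at 43.5 and 41.6 CPM in DKO and 112 and 92.5 CPM in control, from 101 and 101 UMIs in DKO and 210 and 206 UMIs in control. The DKO libraries were close together and each control library stood more than 2 times above them (log2 -1.33 ± 0.16, adjusted p = 0.0023). Pclaf (ENSMUSG00000040204) was at 24.1 and 25.1 CPM in DKO and 73.1 and 53.9 CPM in control, again without overlap (-1.43 ± 0.18, adjusted p = 0.00269). Cdk1 (ENSMUSG00000019942), the kinase that drives entry into mitosis, was at 5.17 and 5.77 CPM in DKO and 21.3 and 17.1 CPM in control, from 12 and 14 UMIs in DKO and 40 and 38 UMIs in control (-1.87 ± 0.31, adjusted p = 0.0351). Both DKO libraries lay below both control libraries for Cdk1 as well.

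Most other G2/M members of NK-like cells lay on the same side without passing the test. Both DKO libraries were below both control libraries for 21 of 22 tested G2/M members and 3 of 17 tested S members, beside 15.7% of genes. The median log2 change was -1.06 for G2/M and -0.08 for S, beside 0.00 for all genes, and 20 members were lower at an unadjusted p under 0.05, beside 5.52%. The cyclin B1 gene Ccnb1 was at 5.17 and 2.47 CPM in DKO and 8.54 and 11.7 CPM in control (-1.49 ± 0.44, adjusted p = 0.292). Birc5, the survivin gene, was at 19.4 and 7.01 CPM in DKO and 28.8 and 36.4 CPM in control (-1.39 ± 0.40). Neither gene's groups overlapped. Top2a was at 63.3 and 65.95 CPM in DKO and 121 and 86.7 CPM in control (-0.74 ± 0.17), and the mitotic kinase gene Plk1 at 4.74 and 2.885 CPM in DKO and 9.60 and 4.94 CPM in control (-0.97 ± 0.48). Cdc20, an activator of the anaphase-promoting complex, was the only tested G2/M member whose groups overlapped, at 8.61 and 3.297 CPM in DKO and 8.003 and 13.5 CPM in control. Aurka, a spindle pole kinase, had the second lowest change (-1.55 ± 0.56) but only 6 and 3 UMIs in DKO and 10 and 12 UMIs in control.

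Most S members of NK-like cells overlapped between groups. Mcm2 and Mcm5 encode subunits of the replicative helicase. Mcm2 was at 31.4 and 40.4 CPM in DKO and 46.95 and 26.5 CPM in control (log2 -0.08 ± 0.23), and Mcm5 at 37.5 and 51.9 CPM in DKO and 45.9 and 32.3 CPM in control (0.13 ± 0.19). Pcna had the highest change of the members, at 61.1 and 89.0 CPM in DKO and 69.9 and 38.6 CPM in control (0.41 ± 0.23). For all 3 genes DKO 2 was above DKO 1 and control 1 above control 2. Slbp was at 113 and 133 CPM in DKO and 111 and 97.5 CPM in control (0.17 ± 0.15). Rrm2, a subunit of ribonucleotide reductase, was at 9.47 and 16.9 CPM in DKO and 28.8 and 14.4 CPM in control (-0.75 ± 0.33). Dut, the dUTPase, was an S member that did not overlap, at 65.9 and 61.0 CPM in DKO and 93.4 and 97.0 CPM in control (-0.66 ± 0.16, adjusted p = 0.19). Cdc6, Ccne2 and Bub1 had too few UMIs to be tested, with 2 and 2 UMIs in DKO and 17 and 6 UMIs in control for Cdc6.

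**Figure D4:**
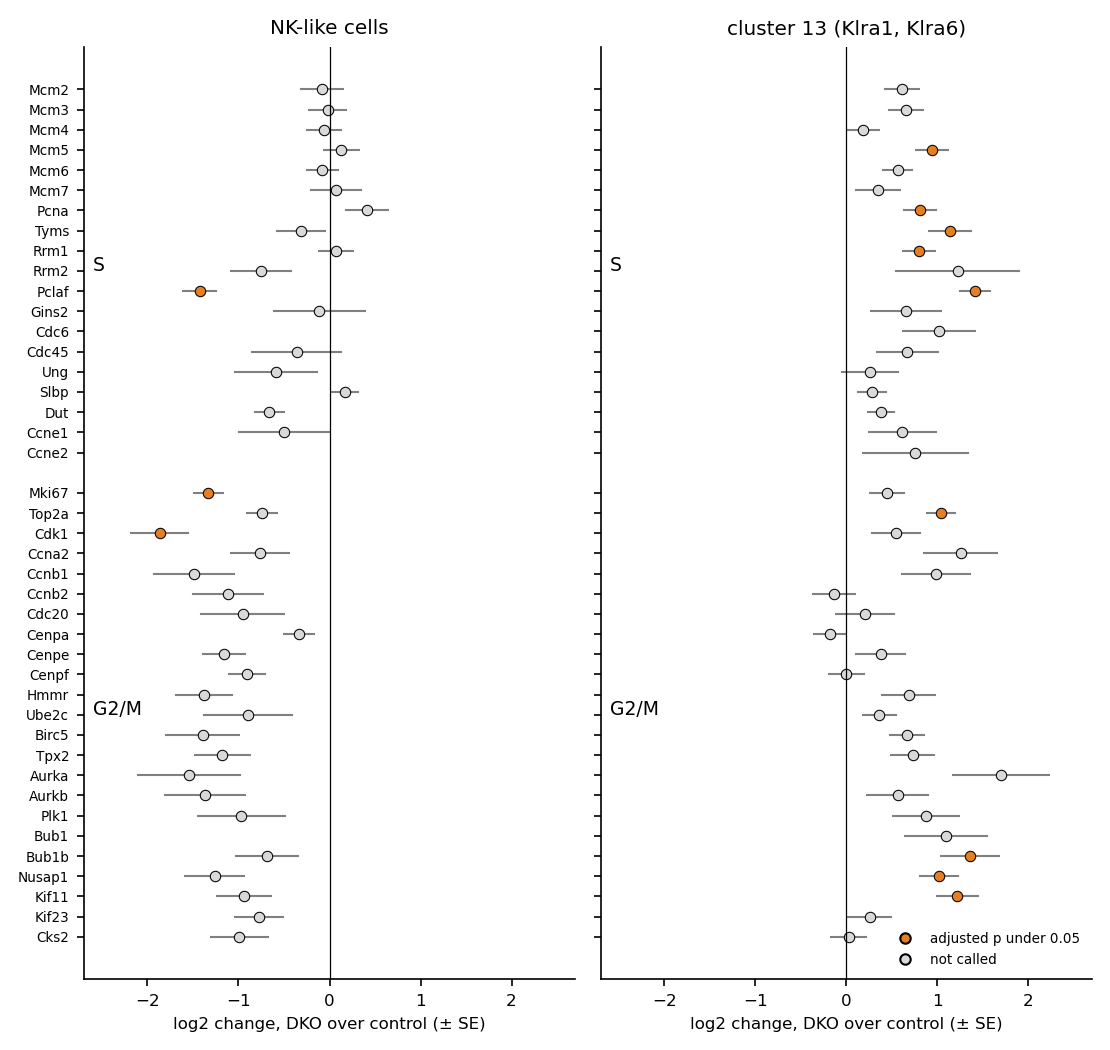
log2 change, DKO over control, with its SE (x axis) for each tested member in NK-like cells (left) and cluster 13 (right); orange points have an edgeR adjusted p under 0.05. In NK-like cells the G2/M members lie mostly below 0 (median -1.06) and the S members around 0 (median -0.08), and in cluster 13 both lists lie mostly above 0 (medians 0.67 and 0.66).

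The NK-like calls depended on which cells were taken as NK-like. DESeq2 called 2 members, Mki67 and Pclaf. A finer clustering called 0 members, with Mki67 at log2 -0.86, and keeping cell cycle genes for clustering also called 0, with Mki67 at -0.99. Pclaf was then at -0.45 with the finer clustering (adjusted p = 0.544) and at -0.32 with the cell cycle genes kept (adjusted p = 0.702). Without doublet removal Pclaf was at -0.85 (adjusted p = 0.0928) and Cdk1 at -1.34 (adjusted p = 0.0883), so that both calls were lost, and a stricter cell filter left Mki67 alone. Without DKO 1, 13 members were called lower, beside 143 of 9608 genes called. Without control 1, 9 were called lower and 1 higher, beside 236 of 9548 genes, and without control 2, 6 were called lower, beside 21 of 9534 genes. The 12 NK markers, none of them at 0 in any library, summed to 16070 and 16800 CPM in DKO and 12420 and 13390 CPM in control. The 15 T markers, 3 of them at 0 in control 2, summed to 1469 and 1423 CPM in DKO and 1467 and 1466 CPM in control and the 15 monocyte/macrophage markers to 1162 and 1154 CPM in DKO and 1364 and 1303 CPM in control. The part of these differences in the result was not tested.

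The class joined cluster 15 (Klra4, Gzma, Klra8) and the smaller cluster 14 (Gzmf, Gzmg), which made up 8.997% and 5.35% in DKO and 4.71% and 17.2% in control of it and held 21.05% and 13.04% in DKO and 15% and 41.7% in control of its cycling cells. In cluster 15 alone Mki67, Pclaf and Cks2 fell, 3 of 31 tested members beside 0.483% of 8696 genes. Mki67 was at 31.65 and 41.4 CPM in DKO and 86.2 and 67.1 CPM in control (log2 -1.13 ± 0.17, edgeR adjusted p = 0.000688). Cks2 was at 22.0 and 16.47 CPM in DKO and 34.0 and 47.3 CPM in control (-1.15 ± 0.24, adjusted p = 0.0254). Neither gene's groups overlapped. Cdk1 was at 2.26 and 4.71 CPM in DKO and 17.0 and 9.18 CPM in control (-1.94 ± 0.47, adjusted p = 0.0535). The G2/M sum was 318 ± 3.96 CPM in DKO and 534 ± 138 CPM in control and the S sum 610.1 ± 71.6 CPM in DKO and 613 ± 83.2 CPM in control (SD, n = 2 each). DESeq2 called 0 members there. The G2/M median log2 change was -0.88 with all libraries. It was -1.28 without DKO 1, -1.09 without DKO 2, -0.47 without control 1 and -1.18 without control 2. With cell cycle genes kept for clustering, Pclaf was instead called higher in DKO in the matched cluster (log2 2.15, edgeR adjusted p = 0.00815).

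In cluster 13, 9 of 42 members rose by edgeR, beside 0.684% of 9351 genes: Pclaf, Mcm5, Tyms, Rrm1 and Pcna of the S list and Top2a, Kif11, Nusap1 and Bub1b of the G2/M list. Pclaf was at 100.2 and 129 CPM in DKO and 45.4 and 35.35 CPM in control (log2 1.42 ± 0.17, adjusted p = 2.66e-06). Top2a was at 192 and 274 CPM in DKO and 111 and 105 CPM in control (1.04 ± 0.15, adjusted p = 0.000266). These changes have the opposite sign to those in NK-like cells, a difference that was not tested, and in both genes each DKO library lay above each control library. Mcm5 was at 67.5 and 88.4 CPM in DKO and 34.4 and 44.1 CPM in control (0.94 ± 0.18, adjusted p = 0.00423). Kif11, a kinesin that separates the spindle poles, was at 30.5 and 42.4 CPM in DKO and 17.6 and 11.8 CPM in control (1.22 ± 0.23, adjusted p = 0.00359). Bub1b, a kinase-like protein of the spindle checkpoint, was at 20.5 and 18.6 CPM in DKO and 9.155 and 4.61 CPM in control (1.36 ± 0.32, adjusted p = 0.0305). None of these 5 overlapped.

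**Figure D5:**
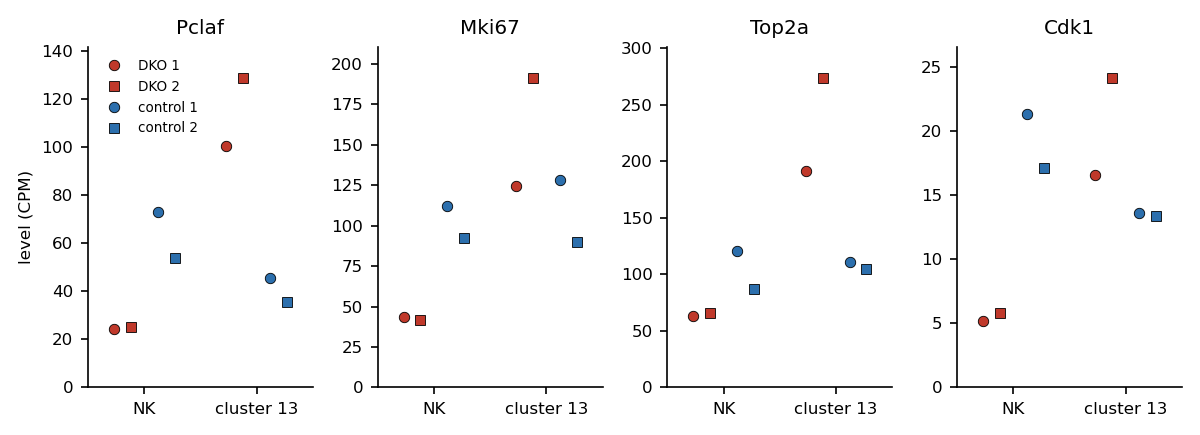
Level (CPM, y axis) of Pclaf, Mki67, Top2a and Cdk1 in each library of NK-like cells and of cluster 13, DKO left of control. In NK-like cells the DKO points lie below the control points for all 4 genes, and in cluster 13 they lie above them for Pclaf, Top2a and Cdk1 and overlap for Mki67.

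The other 4 called members of cluster 13 were Tyms, Nusap1, Rrm1 and Pcna. Tyms was at 25.3 and 39.2 CPM in DKO and 13.55 and 14.9 CPM in control (log2 1.14 ± 0.24, edgeR adjusted p = 0.0112), and Nusap1 at 33.1 and 44.7 CPM in DKO and 21.2 and 14.9 CPM in control (1.02 ± 0.21, adjusted p = 0.0122). Rrm1, the large subunit of ribonucleotide reductase, was at 65.3 and 73.0 CPM in DKO and 39.2 and 36.4 CPM in control (0.80 ± 0.17, adjusted p = 0.0149), and Pcna at 91.9 and 147 CPM in DKO and 70.7 and 58.9 CPM in control (0.81 ± 0.18, adjusted p = 0.0297). Mki67 overlapped, at 124.5 and 191 CPM in DKO and 128.5 and 90.2 CPM in control (0.45 ± 0.19, adjusted p = 0.368). Aurka had the highest change (1.71 ± 0.53, adjusted p = 0.164), from 25 and 18 UMIs in DKO and 9 and 2 UMIs in control. Cenpa, the centromeric histone H3 variant, and Ccnb2 were the only members with a negative change (-0.18 and -0.13). Both DKO libraries lay above both control libraries for 16 S and 15 G2/M members, 31 in all, beside 27.9% of genes, and 24 were higher at an unadjusted p under 0.05, beside 5.72%. The S sum was 1153 ± 275 CPM in DKO and 706 ± 2.69 CPM in control and the G2/M sum 948 ± 174 CPM in DKO and 603 ± 90.0 CPM in control (SD, n = 2 each).

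The 12 NK markers summed to 4485 and 3372 CPM in DKO and 2104 and 3229 CPM in control in cluster 13 and the 15 T markers to 4835 and 4597 CPM in DKO and 5138 and 5398 CPM in control. Il2ra, a subunit of the interleukin 2 receptor, was at 136 and 144 CPM in DKO and 41.0 and 81.5 CPM in control (log2 1.16 ± 0.29, edgeR adjusted p = 0.227), and Cd3e at 367 and 406 CPM in DKO and 386 and 369 CPM in control. The part of these in the result was not tested. DESeq2 called 2 members, Pclaf and Top2a. The median log2 change of the members was 0.66 with all libraries. It was 0.78 without DKO 1, 0.39 without DKO 2, 0.75 without control 1 and 0.63 without control 2. With cell cycle genes kept for clustering, the matched cluster held 49.3% of the cycling cells of cluster 13. There 1 member, Cenpf, was called and was lower in DKO, and Pclaf was at -0.47. Clusters 11, 13 and 15 are described because members were called in them, 3 of 18 clusters tested.

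Members leaned to one side in several monocyte/macrophage-like clusters in which none was called, and not all to the same side. In cluster 2 (Apol7c, Dnase1l3, Cx3cr1) all 42 members had a negative log2 change, with medians of -0.52 for S and -0.41 for G2/M, and edgeR called 0 of 42 beside 0.413% of 11367 genes. Both DKO libraries were below both control libraries for 15 S and 2 G2/M members, beside 22.5% of genes, and 17 members were lower at an unadjusted p under 0.05, beside 6.02%. In cluster 9 (Ly6i, Cxcl9, Nos2) edgeR called 0 of 42 members, beside 0.0293% of 10252 genes. Both DKO libraries were above both control libraries for 18 G2/M and 4 S members, beside 22.1% of genes, and 16 members were higher at an unadjusted p under 0.05, beside 5.06%. Leaving out DKO 1 gave 2 calls in cluster 2, all lower, beside 131 of 11558 genes. Without control 1 the change in cluster 2 was positive for 13 members, with medians of -0.30 for S and 0.013 for G2/M. In cluster 9 leaving out DKO 1, DKO 2 or control 1 gave 3, 3 and 1 calls, all higher, beside 498 of 10384, 151 of 10641 and 98 of 10651 genes. Cluster 3 (Pf4, Ccl8, Ccl7) had a positive change for 41 members, with medians of 0.37 for S and 0.60 for G2/M. In cluster 7 (Retnla, Gas6, Cd163) it was positive for 38, with medians of 0.13 and 0.57. Without DKO 1 the change was instead negative for 30 members in cluster 3 and 29 in cluster 7. With all libraries edgeR called 0 of 42 members in each, beside 4 of 10787 and 0 of 10260 genes. DESeq2 was not run on clusters 2, 3, 7 and 9.

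Whether the DKO change differed between T-like and monocyte/macrophage-like cells was tested with an interaction term. Of 42 members 0 passed by edgeR, beside 0.13% of 13098 genes, with 3 lower at an unadjusted p under 0.05, beside 3.63%. The difference was negative for 40 members, with medians of -0.35 for S and -0.44 for G2/M, and without control 1 it was called for 29, beside 339 of 13296 genes. Without control 2 it was positive for 29 members and negative for 13, with medians of 0.12 for S and 0.09 for G2/M. Over all CD45+ cells together 0 of 42 members passed, beside 0.0% of 14412 genes, with 0 at an unadjusted p under 0.05 (beside 7.6% of genes higher and 5.27% lower) and 0 called by DESeq2. Without control 1, 2 were called higher, beside 248 of 14826 genes. Of the members 36 had a negative change without control 2 and 31 without DKO 1, against 4 with all libraries.

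Related genes outside the members were read from 5 wider lists. In NK-like cells 1 of 30 tested genes of kinetochore, spindle and cytokinesis fell, Cks1b, a subunit of cyclin-dependent kinases, at 13.8 and 13.2 CPM in DKO and 29.3 and 36.4 CPM in control (log2 -1.37 ± 0.24, edgeR adjusted p = 0.0456). Of 38 proliferation-linked chromatin and tubulin genes 2 fell. Stmn1, which destabilises microtubules, was at 57.7 and 64.3 CPM in DKO and 151 and 128 CPM in control (-1.26 ± 0.15, adjusted p = 0.0023). The histone gene Hist1h4d was at 28.85 and 18.1 CPM in DKO and 49.6 and 56.6 CPM in control (-1.26 ± 0.23, adjusted p = 0.0495), and is uncertain because histone genes have near-identical copies. None of 19 G1 cyclin, kinase and E2F genes, 13 inhibitor and quiescence genes or 22 replication genes passed. At an unadjusted p under 0.05, 16 of 30 spindle genes (list median -0.83) and 16 of 38 chromatin and tubulin genes (list median -0.36) were lower. So were 1 G1 gene and 5 replication genes, whose list had a median of -0.39, beside 5.52% of all genes lower. In each of these lists 0 were higher. Of the inhibitor genes 3 were higher, beside 4.69% of all genes higher, and 1 was lower. The cyclin D2 gene Ccnd2 was at log2 0.17, the kinase inhibitor genes Cdkn1a and Cdkn1b at 0.24 and 0.20, and the antiproliferative gene Btg1 at 0.43.

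In cluster 13 the inhibitor gene Cdkn1a rose beside the members, at 65.3 and 57.2 CPM in DKO and 29.7 and 28.2 CPM in control (log2 1.00 ± 0.18, edgeR adjusted p = 0.00327), 1 of 13 in its list. The G1 kinase gene Cdk6 rose, at 184 and 172 CPM in DKO and 112 and 113 CPM in control (0.59 ± 0.14, adjusted p = 0.0411). The cyclin D1 gene Ccnd1 fell, with 1 and 3 UMIs in DKO and 12 and 14 UMIs in control (adjusted p = 0.0328), so that 2 of 21 genes of that list changed, in opposite directions. Lig1, the replicative DNA ligase, was 1 of 27 replication genes to rise, and Smc2, a condensin subunit, 1 of 33 spindle genes. Hist1h1b, Tuba1b and Tuba1c were 3 of 41 chromatin and tubulin genes to rise. In cluster 11 genes of 3 lists fell, beside 1.94% of all genes called: Prim1, a primase subunit, as 1 of 27 replication genes, Cenpw as 1 of 33 spindle genes, and Hmgn2, Stmn1, Hist1h4i and Hist1h2bj as 4 of 50 chromatin and tubulin genes. Stmn1 was at 269.7 and 223 CPM in DKO and 375 and 359 CPM in control there (-0.64 ± 0.13, adjusted p = 0.0194). In the monocyte/macrophage-like, dendritic-like and T-like classes edgeR called 0 genes of the 5 lists; in T-like cells 8 of 27 replication genes were lower, beside 6.61% of all genes, and 5 of 13 inhibitor genes higher, beside 6.45%, at an unadjusted p under 0.05.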

How the data were processed

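The deposited matrices hold raw UMI counts per gene and cell barcode; per the submitters' processing notes Cell Ranger, R 3.6.0 and Seurat 3.1.0 were used and the builds GRCh38 and mm10 are named, and the headers of the deposited files name software version 3.1.0. Barcodes under 200 genes, under 500 UMIs or over 10% mitochondrial counts were dropped, which left 27705, and likely doublets were removed at 0.8% per 1000 barcodes, after which 25880 remained. Cells were clustered with scanpy 1.11.5 and leidenalg 0.10.2 (2000 variable genes, 30 components, 20 neighbours, resolution 1) after 191 cell cycle genes were set aside, and clusters were named from marker lists. Counts were summed per library and class or cluster and tested with edgeR 4.0.16 (TMM factors, filterByExpr, robust quasi-likelihood test, adjusted p threshold 0.05), with DESeq2 1.42.0 as an alternative in R 4.3.3. The test was also run on simulated data. CPM is a gene's share of the summed counts. The members and all gene lists were chosen with earlier results of these data known. Every member may be named; members called in a class, 15 standard members and the 3 highest and 3 lowest changes were preferred. Library totals were 71381613 and 57458026 UMIs in DKO and 80032966 and 74878771 UMIs in control. Alternatives were other scaling factors, no filter on low counts, a replicate block, leaving out each library, no doublet removal, a stricter cell filter, resolution 2, clustering with the cell cycle genes, other thinning depths and other thresholds for the cycling call.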

Additional observations from a re-analysis of the deposited data

Results flagged for a closer look

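Pclaf had changes of opposite direction in NK-like cells (log2 -1.43) and in cluster 13 (log2 1.42). In NK-like cells both DKO libraries were below both control libraries, and in cluster 13 both DKO libraries were above both control libraries. The difference between these 2 changes was not tested. With cell cycle genes kept for clustering Pclaf was at -0.32 in NK-like cells and -0.47 in the cluster matched to cluster 13 (edgeR adjusted p = 0.702 in each), so that the directions were then not opposite.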

How the results depend on the processing

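Of 203 values of the 16 called gene and group pairs under alternatives, 201 kept their direction and 146 kept the call. The 2 that reversed were both Pclaf with cell cycle genes kept for clustering, at -0.47 in cluster 13 and 2.15 in cluster 15. The pairs were chosen because they were called in these same libraries, and most alternatives refit the same cells. The NK-like class also includes cluster 15. The counts therefore describe and are no independent check. Members called over the fits that left out 1 library ranged from 0 to 14 in monocyte/macrophage-like, 0 to 5 in dendritic-like, 0 to 10 in T-like and 3 to 13 in NK-like cells, 0 to 29 for the interaction, 0 to 2 over all cells, 0 to 12 in cluster 11, 3 to 16 in cluster 13 and 2 to 8 in cluster 15. A lone library in a group was assumed to vary like the other group. Without the filter on low counts, 1 member was called in T-like and 14 in NK-like cells, 3 for the interaction, 4 in cluster 11 and 8 in cluster 15. DESeq2 called 0 in cluster 11, 2 in cluster 13 and 0 in cluster 15. The strict cell filter called 1 in NK-like cells and 0 in cluster 11, and resolution 2 called 0 in NK-like cells. With cell cycle genes kept for clustering 0 were called in NK-like cells, 0 in cluster 11, 1 in cluster 13 (lower) and 1 in cluster 15 (higher). The causes were not tested. Over all genes, same-numbered libraries did not deviate together (correlations of -0.02 to -0.21), so the numbers were not taken to pair samples. The cycling share of monocyte/macrophage-like cells was nonetheless higher in library 1 of each group. It was 13.3% and 7.015% in DKO and 13.3% and 5.13% in control. With the replicate block 2 members were called in cluster 11, 8 in cluster 15, 9 in cluster 13, 3 in NK-like cells and 0 in the other 3 classes. With the crossed pairing, chosen after seeing the data, 6 were called in T-like cells, 17 in NK-like cells, 7 in cluster 11, 18 in cluster 13 and 9 in cluster 15. No share of all genes called is given for the replicate block, the crossed pairing or the fits without the low-count filter. Their counts of members therefore only describe. The DKO minus control difference in the cycling share, in percentage points, was 0.959 in monocyte/macrophage-like cells (12.2 without thinning), 0.571 in dendritic-like cells (8.19 without thinning), -4.86 in T-like cells (6.80 without thinning and 0.274 without doublet removal) and -0.555 in NK-like cells. Without doublet removal the T-like class held 4210 cells, against 2559 in the main clustering, and 2462 were shared, so its makeup changed as well. Adding clusters 1, 13 and 16 to the T-like class, with doublets removed, gave a difference of -0.385. In NK-like cells the difference was 5.59 without thinning, 0.787 thinned to 4000 UMIs, -2.16 with the higher threshold, 0.437 at resolution 2 and 0.73 with cell cycle genes kept for clustering. The difference in the log2 ratio of G2/M to S sums was -0.79 in NK-like cells. It moved by less than the spread between libraries under the alternatives run for it. These were no doublet removal, the strict cell filter, a mean over members and leaving out each library. The ratio was not rerun at resolution 2 or with cell cycle genes kept for clustering, where the NK-like calls were lost. Cdk1 in NK-like cells rested on 12 to 40 UMIs per library, which limits its precision.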

Other observations

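The few cells of cluster 23, which carried tumour or fibroblast markers (Col1a2, Col3a1, Sparc), were called cycling in 38.9% and 28.6% in DKO and 76.2% and 48.4% in control, from few thinned cells, 18 and 14 in DKO and 42 and 31 in control.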
